A study of Malus domestica with 5 samples.

Results

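miR160 and miR167 are the microRNA (miRNA) families of plants that act on auxin response factors, and their members were followed here in apple (Malus domestica) buds of the reproductive and of the juvenile phase. Every row of the deposited small RNA count table whose name begins with mdm-miR160 or mdm-miR167 was taken, which gave 15 members (5 of miR160 and 10 of miR167) among 207 named apple miRNAs and 430043 features in all. The reproductive group has 3 libraries labelled as reproductive phase buds. The juvenile group has 2 libraries titled as juvenile phase buds, whose tissue label names a juvenile-like sucker at the base of the stem. No cultivar, tree age, treatment or season is given in the sources used here, and both groups share the same RNA extraction and the same gel selection of small RNAs. Because the suckers are named for the juvenile libraries alone, the phase and the place on the tree cannot be told apart.

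Auxin response factors are transcription factors that bind auxin-responsive promoters, and they fall into activators and repressors. In Arabidopsis, miR167 cleaves the transcripts of the activating ARF6 and ARF8, which are needed for flower and fruit maturation, and miR160 cleaves those of the repressive ARF10, ARF16 and ARF17. The levels of both miRNAs together therefore set limits on opposing arms of the same response, which is why their balance within a library was measured beside each level.

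The 15 members held 4 distinct sets of counts. miR160a to miR160e had the same count in each of the 5 libraries, as did miR167b to miR167g (6 members) and miR167h to miR167j (3 members), while miR167a stood alone. No other row of the table had the counts of any of these sets. Members with identical counts cannot be told apart here, so each set is described once, and a family count adds each of its sets once. In a bulk bud sample, fewer cells of a type and less RNA per cell cannot be told apart either.

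The counts in the table summed to between 122455352 and 140173167 in the reproductive libraries and to 97283456 and 85087230 in the juvenile ones. Identical counts under several names show that a read can stand in these sums more than once, so the read depth is unknown. As a check of the labelled phase, miR172 (a promoter of the adult phase in plants) was set over miR156 (which holds plants juvenile). The quotient was between 3.69 and 4.55 in the reproductive libraries and was 0.937 and 0.970 in the juvenile ones. By itself this gap is a weak check, because the groups did not overlap in 70% of quotients over all 666 pairs of families. TMM scaling, which sets the libraries to a common level over all features, gave reproductive libraries an effective size 3.07-fold that of juvenile libraries. The sums of counts of reproductive libraries stood at 1.41-fold those of juvenile ones. After TMM scaling the groups did not overlap for miR156 but overlapped for miR172. The share of rows with a count above 0 moved with the groups as well, at 85.9% to 86.2% in reproductive and 78.2% and 74.6% in juvenile libraries, and its part in the results below was not tested.

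miR167 was a middle-to-high family in both kinds of bud and was carried by mdm-miR167b to mdm-miR167g. This set had 2920, 2916 and 2514 counts in reproductive replicates 1, 2 and 3, against 691 and 398 in juvenile replicates 1 and 2. After TMM scaling the same set stood at 1755, 1977 and 1602 normalised counts in the reproductive libraries, against 1175 and 901 in the juvenile ones. All 3 reproductive libraries were above both juvenile libraries on either scale. The set rose 1.70-fold in reproductive buds (log2 fold change 0.77, SE 0.12, edgeR quasi-likelihood adjusted p = 7.1e-05). In that test 21.1% of the 282619 features tested were called higher and 24.3% lower, so a call by itself does not set a member apart from the rest of the table. The direction held under each of the 4 scalings tried, with a log2 fold change of 0.75 in DESeq2, 1.37 when TMM used named miRNAs alone and 1.87 on the sums of counts. Among the 84 distinct sets of counts of named miRNAs, miR167b to miR167g ranked 13, 11 and 12 by count in the reproductive libraries and 16 in both juvenile libraries.

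mdm-miR167h to mdm-miR167j were the less abundant part of the family and did not rise with it under TMM. They had 583, 464 and 430 counts in reproductive replicates 1, 2 and 3, against 274 and 201 in juvenile replicates 1 and 2. On the TMM scale the order of the groups was the opposite, with 350.4, 315 and 274 normalised counts in reproductive libraries, against 466 and 455 in juvenile ones. The groups did not overlap on either scale. With TMM the set fell 1.47-fold in reproductive buds (log2 fold change -0.56, SE 0.12, edgeR adjusted p = 0.0010), whereas it stood at 0.0495 with TMM over named miRNAs (edgeR adjusted p = 0.71) and was called higher on the sums of counts at 0.56 (edgeR adjusted p = 0.00062). The direction of miR167h to miR167j thus depended on the scaling.

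mdm-miR167a was rare. It had 7, 3 and 7 counts in reproductive replicates 1, 2 and 3, against 5 and 4 in juvenile replicates 1 and 2, and the groups overlapped on the deposited counts. It did not reach 10 counts in any library and so fell below the count minimum, which left 14 of the 15 members and 3 of the 4 sets in the test under TMM. The TMM-normalised counts were 4.21, 2.03 and 4.46 in the reproductive libraries, against 8.50 and 9.06 in the juvenile ones. On this scale the groups did not overlap. With no count minimum, edgeR gave miR167a an adjusted p of 0.17 at a log2 fold change of -1.21 (SE 0.67), on 3 to 7 counts a library.

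miR160, read from the shared counts of mdm-miR160a to mdm-miR160e, was far less abundant than miR167 in every library. Its single set had 86, 83 and 117 counts in reproductive replicates 1, 2 and 3, against 91 and 64 in juvenile replicates 1 and 2, and these deposited counts overlapped between the groups. On the TMM scale they became 51.7, 56.3 and 74.6 normalised counts in the reproductive libraries, against 155 and 145 in the juvenile ones, with no overlap. Under TMM, miR160 fell 2.47-fold in reproductive buds (log2 fold change -1.30, SE 0.18, edgeR adjusted p = 2.5e-05). On the sums of counts the log2 fold change was -0.19 (SE 0.21, edgeR adjusted p = 0.40), and it was -0.70 with TMM over named miRNAs (edgeR adjusted p = 0.0084). The direction was the same in DESeq2 (-1.32), and only the sums of counts ended the call of the set. Among the 84 distinct sets, miR160 ranked 38, 40 and 40 by count in the reproductive libraries, and 31 and 27 in the juvenile ones.

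**Figure D1:**
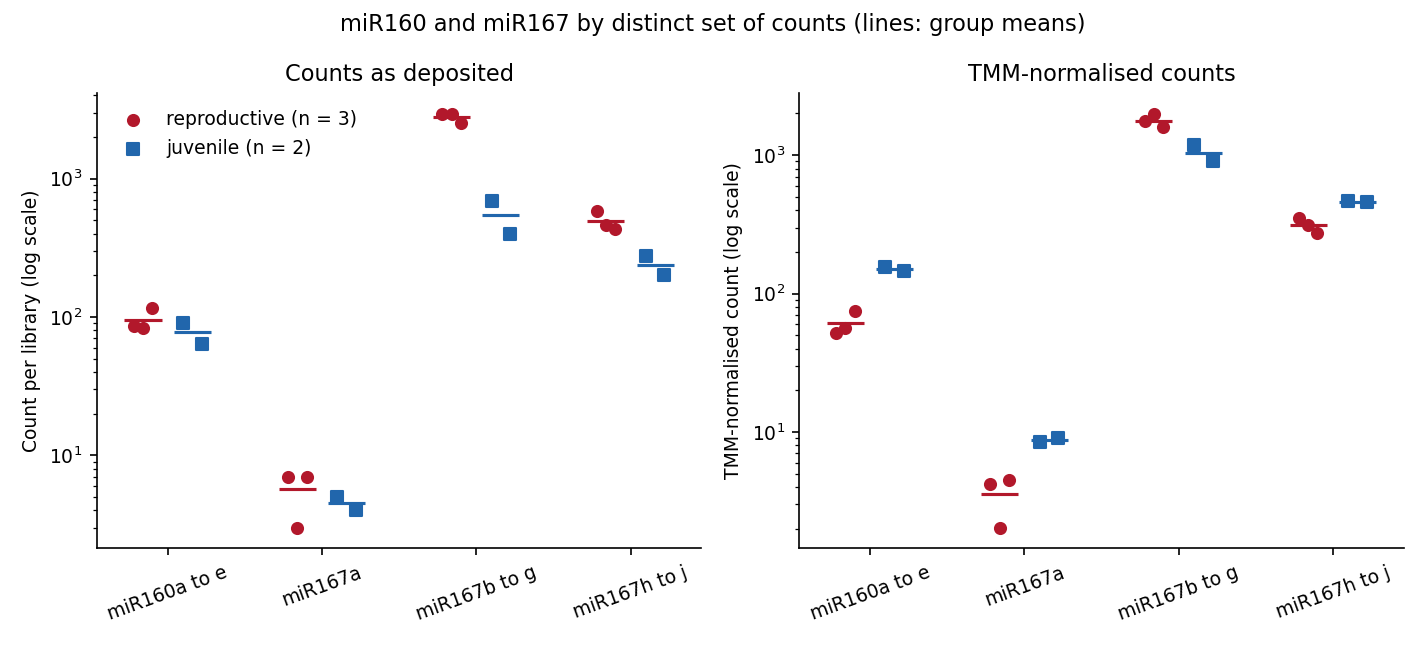
Counts as deposited (left) and TMM-normalised counts (right) of the 4 distinct sets of counts, on log axes, with 1 point per library and a line at each group mean. miR167b to miR167g are higher in all 3 reproductive libraries on both axes, while miR160 and miR167h to miR167j change the order of their groups or their overlap between the axes.

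Of the 3 sets tested, 1 rose and 2 fell under TMM, with a median log2 fold change of -0.56, beside a median of 0.08 over all features tested. Among the 64 tested sets of named miRNAs, 25% were called higher and 35.9% lower in that edgeR test. The groups of all 3 sets were apart on the TMM scale, as they were for 36.1% of features in the higher and 33% in the lower direction, so separation of the groups alone does not mark these members. Scaling on the sums of counts moved the median of all features to 1.19, where 83.3% of features were called higher and 2.46% lower. On that scale miR167b to miR167g lay at 1.87, miR167h to miR167j at 0.56 and miR160 at -0.19. The shift is nearly the same for every feature, so the place of a set relative to the median hardly depends on the scaling. That this place is kept on the sums is therefore not a further result.

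**Figure D2:**
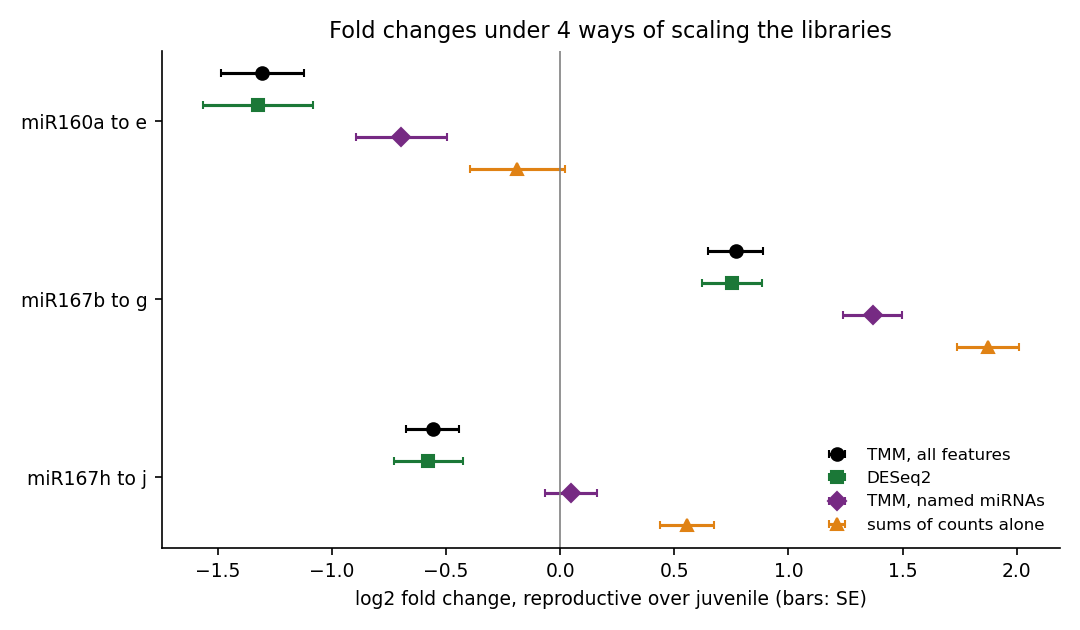
Log2 fold change (reproductive over juvenile) of the 3 sets tested, on the horizontal axis, under 4 ways of scaling the libraries, with bars of 1 SE. miR167b to miR167g lie right of 0 in each case, miR160 lies left of 0 in each case, and miR167h to miR167j change sign.

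As whole families, miR167 averaged 2095 ± 207 normalised counts in reproductive libraries and 1507 ± 200.4 in juvenile libraries (SD, n = 3 and n = 2). miR160 averaged 60.8 ± 12.1 in reproductive libraries and 149.8 ± 6.90 in juvenile libraries (SD, n = 3 and n = 2). In edgeR's quasi-likelihood test over 37 families, miR167 had a log2 fold change of 0.47 (SE 0.17, adjusted p = 0.012) and miR160 one of -1.30 (SE 0.33, adjusted p = 0.00041). Over these families 13.5% were called higher and 37.8% lower. The miR167 family call ended without reproductive replicate 2 (log2 fold change 0.41, edgeR adjusted p = 0.15) or without juvenile replicate 2 (0.34, edgeR adjusted p = 0.090), although the calls of its 2 tested sets held without any 1 library. The miR160 family call ended on the sums of counts (-0.18) and with TMM over named miRNAs (-0.69, edgeR adjusted p = 0.081). It also ended with the replicate number added to the fit (-1.47, edgeR adjusted p = 0.081). The miR160 family has the same counts as its single set. The family and set tests thus differ only in being fitted and adjusted over families or over all features.

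In the order of the 37 families by TMM fold change, counted from the highest, miR167 ranked 13 and miR160 ranked 29. Another scaling shifts all families by nearly the same amount and so says nothing about this order. Leaving out single libraries moved miR167 between ranks 10 and 14 and miR160 between ranks 26 and 33, with 35 to 37 families tested.

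**Figure D3:**
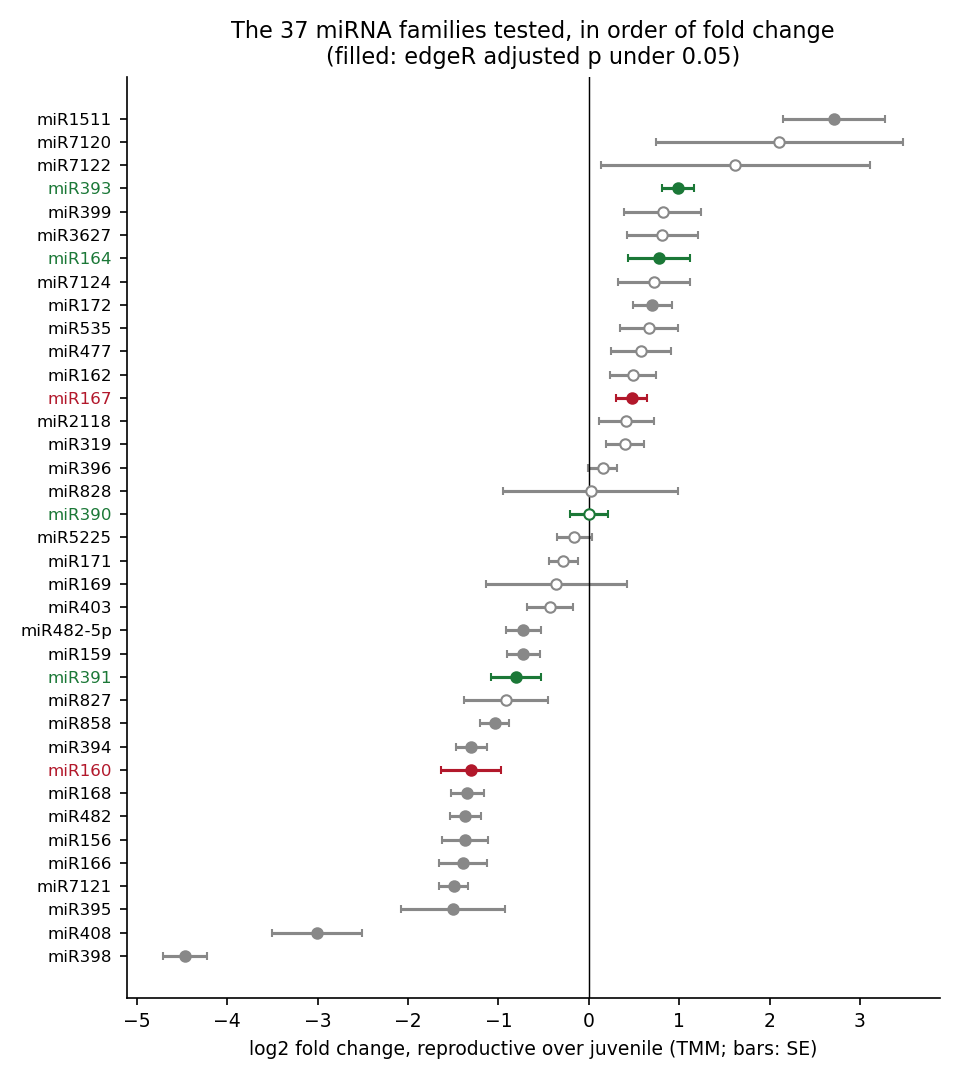
Log2 fold change (reproductive over juvenile, TMM) of the 37 families tested, in order from the highest at the top, with bars of 1 SE and filled points for edgeR adjusted p under 0.05. miR167 at 0.47 and miR160 at -1.30 are in red, and 4 other auxin-related families are in green.

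The make-up of miR167 within a library, a measure that needs no scaling, differed without overlap between the groups. How often the make-up of other families differed in this way was not computed. On the TMM scale the groups were apart for 36.1% of features in the higher and 33% in the lower direction. miR167b to miR167g made up 83.2%, 86.2% and 85.2% of miR167 counts in reproductive replicates 1, 2 and 3, against 71.2% and 66.0% in juvenile replicates 1 and 2. The 95% Wilson intervals, which cover counting error only and take each count as 1 read, ran from 81.9% to 87.3% over the reproductive libraries and from 62.1% to 74.0% over the juvenile ones. Neither the shares nor their intervals overlapped between the groups.

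miR167h to miR167j held the complement, 16.6%, 13.7% and 14.6% in reproductive replicates 1, 2 and 3, against 28.2% and 33.3% in juvenile replicates 1 and 2. The share of miR167b to miR167g was 16.2 percentage points higher in reproductive libraries, and that of miR167h to miR167j lower by a difference of -15.8 points. Adding every member name, so that shared counts enter once per name, gave differences of 10.3 and -10.2 points. For both shares the two-sided exact permutation p was 0.1, also after Benjamini-Hochberg adjustment over 4 shares, and 0.1 is the smallest p that 10 splits of 3 against 2 libraries allow. miR167a took 0.199%, 0.0887% and 0.237% of the family in reproductive libraries, against 0.516% and 0.663% in juvenile ones, on the same few counts. The Wilson intervals of miR167a overlapped between groups, with a highest reproductive bound of 0.489% and a lowest juvenile bound of 0.220%.

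**Figure D4:**
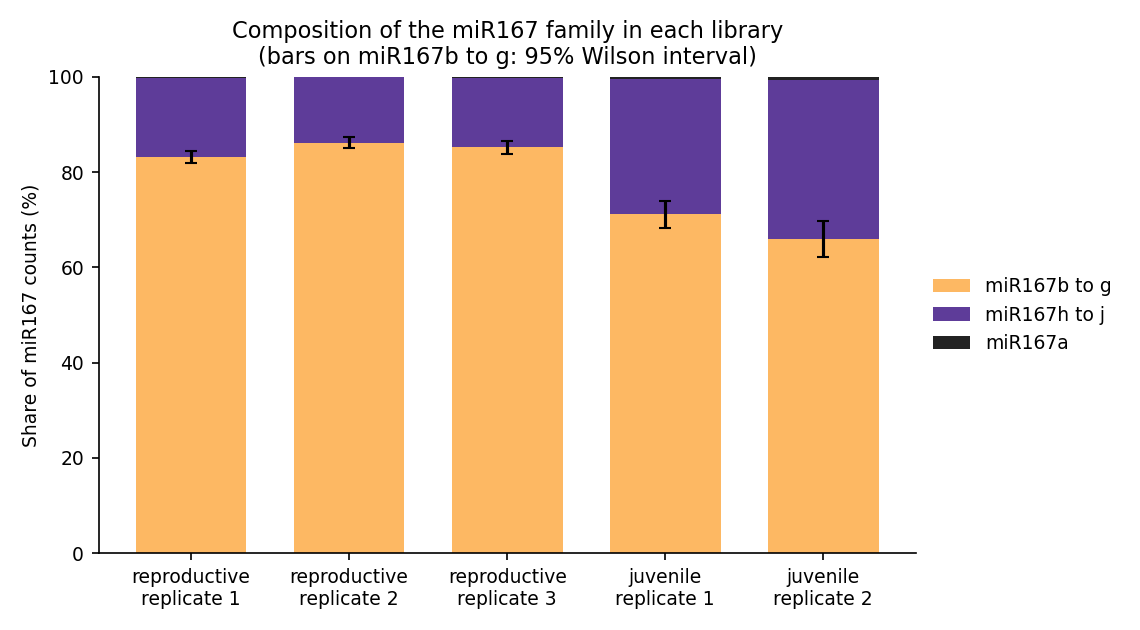
Share of the miR167 counts (%) held by each distinct set in each library, with 95% Wilson intervals on miR167b to miR167g. miR167b to miR167g fill 83.2% to 86.2% of each reproductive bar and 66.0% and 71.2% of the juvenile bars.

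A model was fitted over the members of all families with 2 or more tested sets (edgeR's diffSpliceDGE on 42 distinct sets of 15 families). It asked whether a member moved differently from its family as a whole, the member included. miR167h to miR167j fell relative to miR167 as a whole (log2 change -0.72, adjusted p = 0.00097). miR167b to miR167g had a log2 change of 0.20 relative to the family (adjusted p = 0.43), a family level to which they contribute most of the counts. As miR167 had no other set in this model, both values reflect the same shift between these sets. In the same diffSpliceDGE fit 9 of the 42 sets, or 21.4%, were called.

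The balance of miR167 to miR160 was higher in each reproductive library than in either juvenile library. Such separation was common, as the groups did not overlap for 70% of the quotients of all 666 pairs of families. miR167 counts were 40.8, 40.8 and 25.2 times those of miR160 in reproductive replicates 1, 2 and 3, against 10.7 and 9.42 times in juvenile replicates 1 and 2. Reproductive replicate 3, which had the most miR160 counts, was the lowest of its group and still above both juvenile libraries. The quotient was 3.47-fold higher in reproductive libraries (log2 change 1.79, two-sided exact permutation p = 0.1, the smallest possible, and 0.114 after Benjamini-Hochberg adjustment over 8 quotients). Without reproductive replicate 3 it was 4.07-fold higher, and it stayed between 3.20-fold and 3.69-fold when any other single library was left out. Expressed as a share, miR160 held 2.39%, 2.40% and 3.81% of the summed miR160 and miR167 counts in reproductive libraries, against 8.58% and 9.60% in juvenile ones.

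Both tested sets of miR167 were also set against miR160 singly. miR167b to miR167g over miR160 was 34.0, 35.1 and 21.5 in reproductive replicates 1, 2 and 3, against 7.59 and 6.22 in juvenile replicates 1 and 2, a 4.29-fold difference (exact permutation p = 0.1, adjusted 0.114). miR167h to miR167j over miR160 was 6.78, 5.59 and 3.68 in the reproductive libraries, against 3.01 and 3.14 in the juvenile ones. That difference was 1.69-fold, with reproductive replicate 3 close to the juvenile values (exact permutation p = 0.2, adjusted 0.2). Within miR167, the quotient of miR167b to miR167g over miR167h to miR167j was 5.01, 6.28 and 5.85 in the reproductive libraries, against 2.52 and 1.98 in the juvenile ones, which is 2.55-fold higher (exact permutation p = 0.1, adjusted 0.114).

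**Figure D5:**
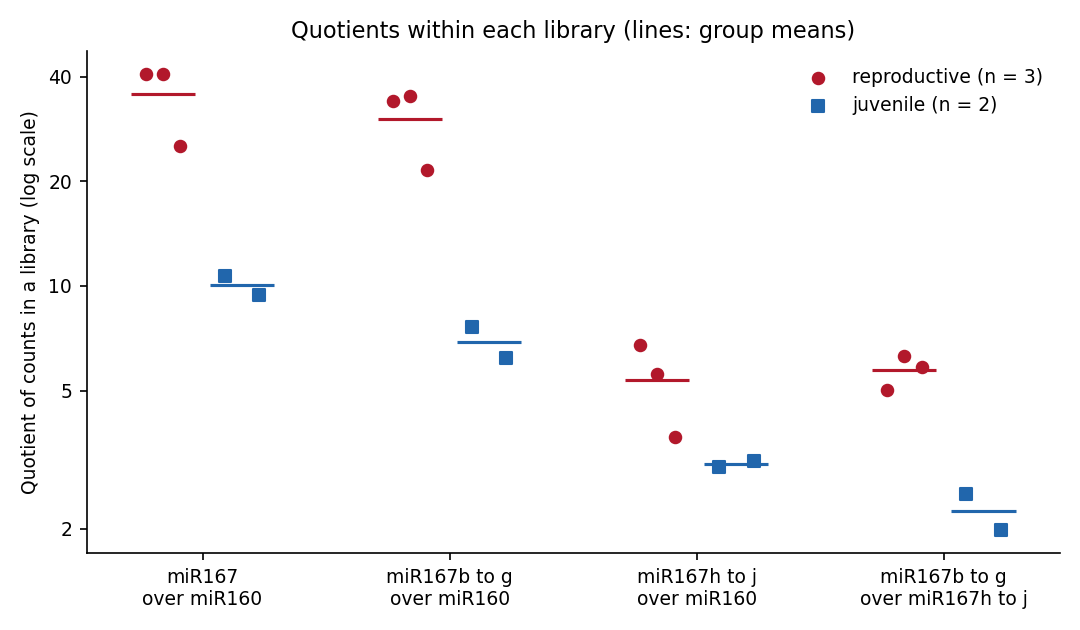
Quotients of counts within each library on a log axis, with 1 point per library and a line at each group mean. miR167 over miR160 lies at 25.2 to 40.8 in reproductive and at 9.42 and 10.7 in juvenile libraries, and the lowest reproductive point of miR167h to miR167j over miR160 (3.68) lies near the juvenile points.

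The quotients of both families with every other tested family gave a wider frame, with 0.5 added to each count. The groups did not overlap for 70% of all 666 pairs of families, and the pairs share libraries and families. Against the 36 other families, the miR167 quotient was higher without overlap for 20 and lower without overlap for 3 (miR1511, miR393 and miR7120), together 63.9%. The miR160 quotient was lower without overlap for 25 families and higher for 2 (miR398 and miR408), together 75%. Shares of separated quotients of this size are near the background of all pairs.

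As a share of all named miRNA counts, with each distinct set taken once per family, miR167 made up 0.480%, 0.637% and 0.566% in reproductive replicates 1, 2 and 3, against 0.248% and 0.171% in juvenile replicates 1 and 2. miR160 made up 0.0118%, 0.0156% and 0.0225% in the reproductive libraries, against 0.0233% and 0.0181% in the juvenile ones. The groups were apart for miR167 and overlapped for miR160. How many other families were apart on this measure was not computed. The measure also moves with the total of named miRNA counts, so it is not a level of either family alone.

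Other miRNAs of auxin signalling gave a mixed picture. Of a list of 5 names, 4 had rows and were tested as families, and under TMM 2 rose, 1 fell and 1 did not pass, with a median log2 fold change of 0.39 beside -0.16 over all families tested. Over all 37 families, 13.5% were called higher and 37.8% lower in that test. miR393, which targets auxin receptors of the TIR1 type, had a log2 fold change of 0.98 (edgeR adjusted p = 9.8e-07), and miR164, which targets NAC genes and so touches auxin-dependent organ formation, had one of 0.77 (edgeR adjusted p = 0.049). miR391, a relative of miR390, fell under TMM by a log2 fold change of -0.81 (edgeR adjusted p = 0.011), and stood at 0.30 on the sums of counts. miR390, which triggers the trans-acting siRNAs against another group of ARF transcripts, did not pass, with a value of 0.00 on the log2 scale (edgeR adjusted p = 1). The miR164 call ended without any 1 of the 5 libraries, and the miR391 call ended without reproductive replicate 3 or juvenile replicate 1 and with TMM over named miRNAs.

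Set against these regulators within a library, miR160 and miR167 took different places. miR167 over miR390 was 5.0, 5.34 and 4.36 in reproductive replicates 1, 2 and 3, against 3.21 and 4.05 in juvenile replicates 1 and 2, a 1.36-fold difference. miR160 over miR390 was 0.122, 0.131 and 0.173 in the reproductive libraries, against 0.301 and 0.430 in the juvenile ones, a log2 change of -1.36. miR167 over miR393 was 1.19, 1.49 and 1.28 in the reproductive libraries, against 1.90 and 1.83 in the juvenile ones, a log2 change of -0.51. In every reproductive library miR167 was thus higher relative to miR390, and lower relative to miR393, than in either juvenile library. Separation of this kind held for 70% of all 666 pairs of families. miR160 over miR393 had the widest gap of the 8 quotients, at 0.0290, 0.0366 and 0.0508 in reproductive libraries, against 0.178 and 0.194 in juvenile ones (log2 change -2.30). Each of these 4 quotients had an exact permutation p of 0.1, adjusted to 0.114.

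The miRNAs whose pattern over the 5 libraries was most like each set were found by the root mean square difference of centred log2 normalised counts, in which library scaling cancels but for 0.5 added to each value, among 54 other distinct sets of named miRNAs. Nearest to miR160 were miR394a (0.216), miR168a (0.229) and miR482c (0.268), against a median difference of 0.671. Nearest to miR167b to miR167g were miR162a (0.158), miR393c (0.170) and miR396b (0.173), against a median of 0.612. Nearest to miR167h to miR167j were miR159a (0.145), miR171a (0.146) and miR396f (0.156), against a median of 0.570. Each list thus held miRNAs of other families. No name was shared between the lists, although members of miR396 stood in both miR167 lists. By the same measure miR167h to miR167j differed by 0.677 from miR167b to miR167g and by 0.464 from miR160, and miR160 differed by 1.06 from miR167b to miR167g.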

How the data were processed

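Small RNAs of 3 reproductive and 2 juvenile bud libraries were gel-selected, ligated to adapters and amplified, per the labels' protocols. The authors deposited raw read counts for each feature, left unscaled. The submitters' processing notes list Bowtie 1.1.2. The sources used here do not give the allowed mismatches, the handling of multiple matches or the genome build. Column names were matched to sample titles.

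Features reaching 10 counts in 2 or more libraries were tested with edgeR 4.0.16 (R 4.3.3; quasi-likelihood, TMM, group as the only term), adjusted by Benjamini-Hochberg over all features and called under 0.05. edgeR's common coefficient of variation was 0.0758 for features and 0.17 for the 37 families. SE is the absolute log2 fold change divided by the square root of F. DESeq2 1.42.0 was an alternative. Normalised counts were divided by effective library sizes scaled to a geometric mean of 1. The fit was tested on simulated data. Shares and quotients were compared by exact permutation over samples.

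The members, lists and tests were chosen with earlier results of these data known. The naming rule takes every member, 5 auxin-related names, and the 3 nearest miRNAs of each set with a mean of at least 10 normalised counts. No pair of libraries of a group was a copy of another (chi-square per feature from 1.94 to 6.63). Nothing in the labels says whether the replicates are separate trees: p-values then cover only the spread between these libraries, which may be technical. Sequences of the members were not used here.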

Additional observations from a re-analysis of the deposited data

How the results depend on the processing

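miR167b to miR167g kept their direction and call under every alternative run, and the quotient of miR167 over miR160 kept its direction. The direction of miR167h to miR167j reversed on the sums of counts (0.56, edgeR adjusted p = 0.00062). With TMM over named miRNAs no change was called for this set (0.0495, SE 0.11, edgeR adjusted p = 0.71). On the sums the log2 fold change of miR160 was -0.18 as a family and -0.19 as a set, neither past the threshold, and the miR160 family also missed it with TMM over named miRNAs (-0.69). These scalings raise every log2 fold change by about 1.12 and 0.62. With members' counts added without collapsing, both family calls held, and the share differences were 10.3 points for miR167b to miR167g, -10.2 for miR167h to miR167j and -0.0854 for miR167a, against 16.2, -15.8 and -0.414 points with each set once. Without single libraries the log2 fold change of miR167 ranged from 0.34 to 0.62 and that of the quotient from 1.68 to 2.03. diffSpliceDGE called miR167h to miR167j (-0.72), which the exact test of shares could not.

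Features called higher numbered 59564 with TMM, 36375 with DESeq2, 235325 on the sums and 159343 with TMM over named miRNAs, and from 31259 to 65384 without single libraries. Features called lower numbered 68585 with TMM, 6957 on the sums and 21253 with TMM over named miRNAs. Families called higher numbered 5 with TMM, 20 on the sums and 15 with TMM over named miRNAs, and from 2 to 7 without single libraries. Families called lower numbered 14, 3 and 8 in the same 3 scalings.

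Titles share replicate numbers 1 and 2, and same-numbered libraries did not deviate together (correlations of -0.12 and -0.025). With a replicate block the miR160 family missed the threshold (-1.47, edgeR adjusted p = 0.081) and 2 families were called higher. In the fit over all features with that block, the miR160 set, which has the same counts, was called (-1.48, edgeR adjusted p = 2.2e-09). miR160 had 64 to 117 counts a library and miR167a 3 to 7, so their values carry more counting error than those of miR167b to miR167g.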

Other observations

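Of the 15 members, 10 carry the name of a miRNA gene in the RefSeq gene table of apple (assembly GDT2T_hap1), 4 of miR160 and 6 of miR167. MIR167B and MIR167C, whose members share their counts here, lie on the same chromosome of that assembly with 1 annotated gene between them. The distances of the patterns among the 3 sets, given after the nearest miRNAs, were computed after the values were seen.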
